A study of Mus musculus with 20 samples.

Results

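Collagen genes were examined in bulk RNA sequencing of mouse kidney tumors and normal kidneys. The members are all protein-coding genes whose symbol reads Col, a number, the letter a and a number, and 44 of the 54532 genes in the count table met this rule. The series holds 10 tumors and 10 normal kidneys, and every library was used. The tumors grew in LSL-Cas9/+; Pax8 Cre/+ mice of a C57BL/6 background after an adeno-associated virus (AAV) without Cre had been injected into the kidney. The virus carried guide RNAs against Vhl, Pbrm1, Keap1 and Tsc1, and Cas9 with GFP is switched on wherever Pax8 Cre is active, which is mainly the epithelium of the renal tubule. Tumors and normal kidneys were collected from a cohort of 10 such mice, so that both groups carry the same Cas9 and Cre alleles, and the labels do not say whether the normal tissue came from an injected kidney. Mice of both sexes were injected as young adults, and the age at collection is not given in the sources used here. The labels do not say that tumor 7 and normal kidney 7, or any other libraries of equal number, came from 1 mouse.

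Collagens are secreted or membrane-bound proteins built of chains that wind into a triple helix, with each chain encoded by its own gene. Fibrillar collagens (types I, II, III, V, XI, XXIV and XXVII) form the fibers of connective tissue and are made mostly by fibroblasts, whereas collagen IV forms the sheet-like network of basement membranes, under epithelia and around vessels. In the kidney the α1 and α2 chains of collagen IV are found in nearly every basement membrane, while the α3, α4 and α5 chains form the mature network of the glomerular filter, and their loss causes Alport syndrome. Other types attach to fibrils (XII, XIV, XVI, XX), form beaded filaments (VI), line vessels (VIII), carry anti-angiogenic fragments (XV, XVIII) or span the cell membrane (XIII, XVII, XXIII, XXV).

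Each library held between 14737516 and 26679704 counts, and values are given as CPM, the count of a gene relative to the total of its library, with totals scaled by the TMM method of edgeR. Levels of different genes are compared only as CPM per kilobase (kb) of the gene length in the count table. Of the tissue markers, Umod, a product of the thick ascending limb, was at 3419 to 7910 CPM in normal kidneys and at most at 5.46 CPM in tumors, while Lrp2 of the proximal tubule was found in both tissues. Counts over a whole gene do not show whether it carries an edit. Among the guide targets, Vhl (log2 fold change -0.49, edgeR adjusted p = 0.00179) and Tsc1 (-0.61, adjusted p = 0.00871) were lower in tumors, Keap1 was higher (0.83, adjusted p = 1.3e-07) and Pbrm1 was not called (-0.28, adjusted p = 0.23). Because the samples are pieces of tissue, more cells of a type and more RNA per cell cannot be told apart.

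Some libraries stood apart in many of the collagen genes. Tumor 7 was the highest tumor in 21 of the 29 collagen genes that could be tested, and across all genes tested it was the highest tumor in 25.5%. Tumor 7 was the highest of all 20 libraries in 18 of the 29, compared with 11.6% of all genes tested. Normal kidney 7 was the highest kidney in 17 of the 29 (15.9% of all genes tested), and normal kidney 9 was the lowest kidney in 20 of the 29 (32.9% of all genes tested). The summed level of all 44 genes was 14297 CPM in tumor 7 and 3231 to 5416 CPM in the other 9 tumors. In normal kidneys the sum was 4376 CPM in kidney 7 and 663 CPM in kidney 9, with the other kidneys between 1613 and 2220 CPM. Fold changes of the collagen genes are therefore given with and without tumor 7.

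**Figure D1:**
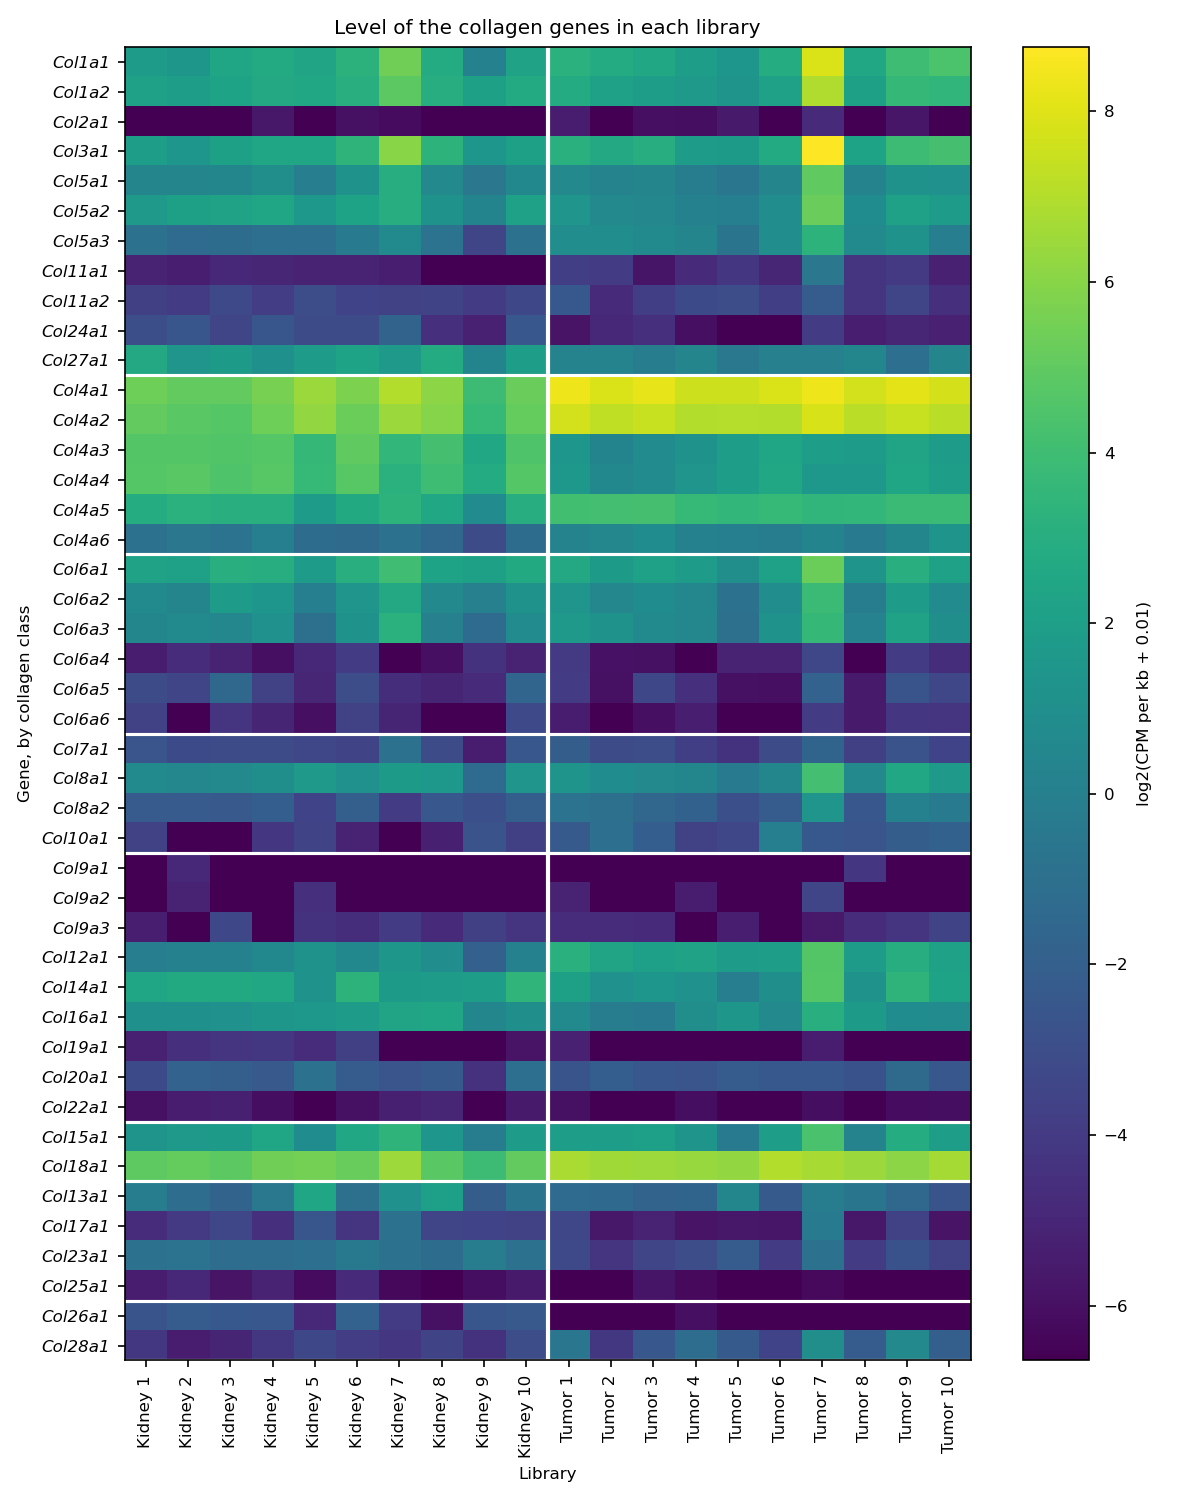
Heat map of log2(CPM per kb + 0.01) for the 44 collagen genes (rows, grouped by class with white lines) in the 20 libraries (columns, normal kidneys left and tumors right). Col4a1, Col4a2 and Col18a1 are the brightest rows, and tumor 7 is brighter than the other tumors, and normal kidney 7 than the other kidneys, in Col1a1, Col1a2, Col3a1, Col5a1, Col5a2, Col5a3, Col6a1, Col6a2 and Col6a3.

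Expression differed between tumors and normal kidneys in 13 of the 29 collagen genes tested, 8 higher and 5 lower in tumors (edgeR quasi-likelihood test, adjusted p under 0.05). The higher genes were Col4a1, Col4a2, Col4a5, Col4a6, Col5a3, Col8a2, Col12a1 and Col18a1, and the lower genes were Col4a3, Col4a4, Col13a1, Col23a1 and Col27a1. Across all 15354 genes tested 23.6% were called higher and 23.8% lower, so that the shares among the collagen genes lie near the background. By stricter limits, a log2 fold change over 1 in size with an unadjusted p under 0.001, 8 collagen genes were higher and 4 lower, with 8.85% and 10.2% of all genes tested past these limits. Without tumor 7 the same 8 genes were higher (23.6% of all genes tested) and 7 were lower (27.1%), with Col5a2 and Col16a1 added to the 5 lower genes. Every tumor lay above every normal kidney in 4 of the 29 genes (5.87% of all genes tested) and below in 2 (4.74%).

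The rises differed in how far they rested on tumor 7. Of the 8 called rises, 5 moved by less than 0.1 on the log2 scale when tumor 7 was left out, namely those of Col4a1, Col4a2, Col4a5, Col4a6 and Col18a1. The other 3, those of Col5a3, Col8a2 and Col12a1, became smaller by more than 0.4 and remained past the threshold. A positive log2 fold change that was not called was found in 11 genes, and in 9 of them it turned negative without tumor 7 (Col1a1, Col1a2, Col3a1, Col5a1, Col5a2, Col6a1, Col6a2, Col6a3 and Col15a1). Over all genes tested, 3.99% changed sign in this way. Col8a1 and Col11a2 stayed positive, at 0.04 and 0.02. These fits kept normal kidney 7. Without both number 7 libraries Col1a1 was at 0.75, Col3a1 and Col6a3 at 0.60, Col15a1 at 0.10 and Col1a2 at 0.02, none called. Col5a1 (-0.02), Col5a2 (-0.79), Col6a1 (-0.42) and Col6a2 (-0.18) were negative there, and Col5a2 was called lower. The median log2 fold change of the 29 genes was 0.46 with tumor 7 and -0.44 without it, while the median over all genes tested was -0.02 and -0.05.

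**Figure D2:**
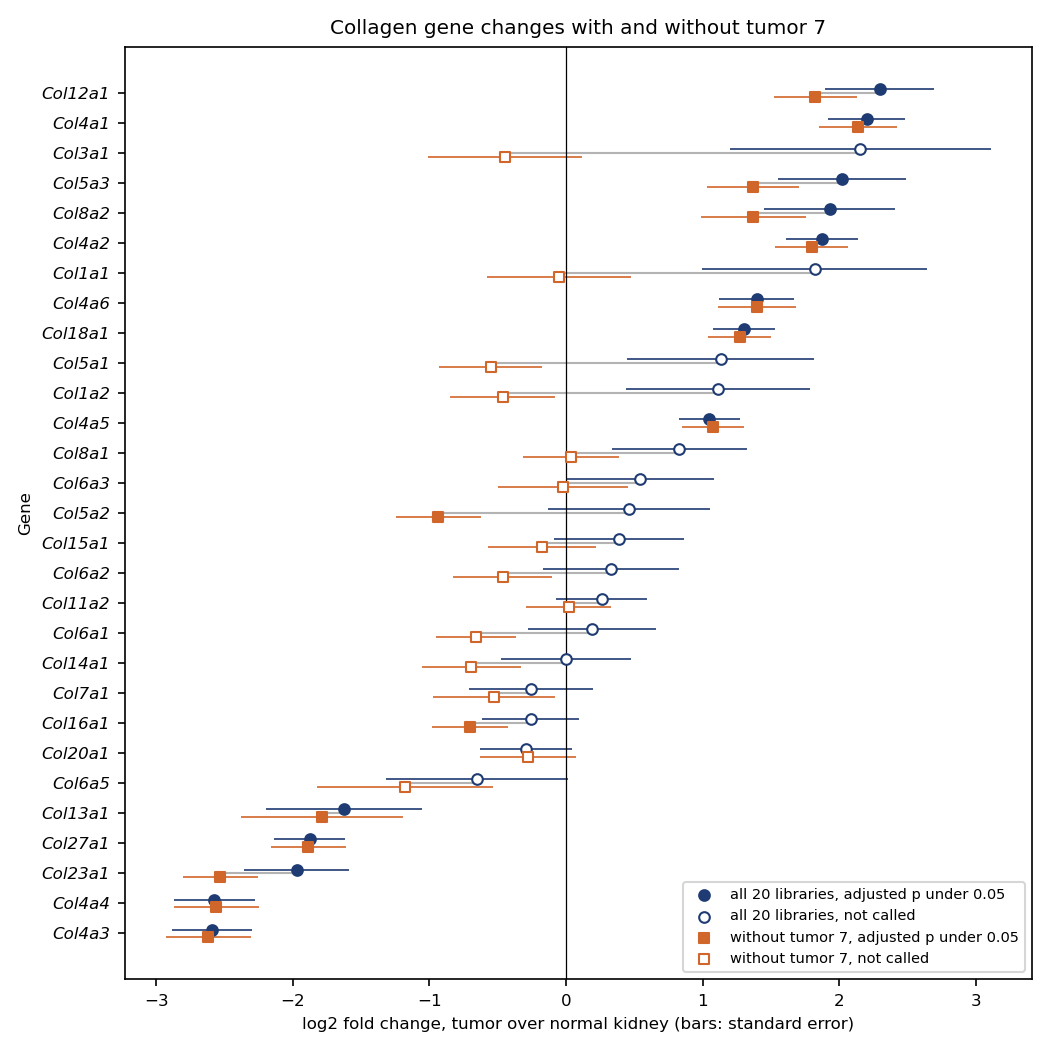
Log2 fold change of tumor over normal kidney (horizontal axis, bars give the standard error) for the 29 tested collagen genes (vertical axis), with all 20 libraries (circles) and without tumor 7 (squares). Filled symbols passed an adjusted p of 0.05; the collagen IV genes and Col18a1 barely move, whereas Col3a1 moves from 2.15 to -0.44 and Col1a1 from 1.82 to -0.05.

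All 6 collagen IV genes were called, in opposite directions, with 4 higher and 2 lower in tumors. They lie in the genome as 3 head-to-head pairs, each pair read outward from a shared start region. Col4a1 (ENSMUSG00000031502, chr8:11198423-11312826, minus strand) and Col4a2 (ENSMUSG00000031503, chr8:11312805-11449287, plus strand) overlap by 22 bases at their starts. Col4a4 (ENSMUSG00000067158, chr1:82448423-82586849, minus strand) and Col4a3 (ENSMUSG00000079465, chr1:82586921-82722059, plus strand) are 71 bases apart. Col4a6 (ENSMUSG00000031273, chrX:141165403-141474076, minus strand) and Col4a5 (ENSMUSG00000031274, chrX:141475385-141689234, plus strand) are 1308 bases apart. Positions are those of the count table, which uses mm10, and the sequences below are from RefSeq on GRCm38.p6, the same assembly. They are shown because the members of each pair changed in the same direction, and they are written on the plus strand, with capitals marking the searched motifs (the hypoxia response core ACGTG or GCGTG, the CCAAT box CCAAT and the GC box GGGCGG, on either strand).
Col4a1 and Col4a2 shared bases, chr8:11312805-11312826: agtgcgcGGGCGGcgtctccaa
Col4a4 and Col4a3 gap, chr1:82586850-82586920: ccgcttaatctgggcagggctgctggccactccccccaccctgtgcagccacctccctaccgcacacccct
Col4a6 upstream, chrX:141474096-141474326: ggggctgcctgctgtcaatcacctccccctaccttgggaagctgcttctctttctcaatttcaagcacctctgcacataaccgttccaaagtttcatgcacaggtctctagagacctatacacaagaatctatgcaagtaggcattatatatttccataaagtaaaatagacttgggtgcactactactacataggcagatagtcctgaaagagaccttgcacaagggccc
Col4a5 upstream, chrX:141475169-141475369: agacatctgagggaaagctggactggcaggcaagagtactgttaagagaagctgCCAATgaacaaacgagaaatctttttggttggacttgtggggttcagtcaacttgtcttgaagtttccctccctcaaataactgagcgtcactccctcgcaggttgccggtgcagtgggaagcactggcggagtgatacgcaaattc
The stretch shared by Col4a1 and Col4a2 holds 1 GC box, that before Col4a5 holds 1 CCAAT box, and the other stretches hold none of these letters.

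Promoter windows of 300 bases (250 before and 50 after the start) were found in the RefSeq table for 35 of the 44 members, with 38 windows among them. The 9 members without a window are Col1a1, Col2a1, Col5a2, Col4a3, Col9a3, Col12a1, Col14a1, Col22a1 and Col26a1. The hypoxia response core, to which HIF proteins bind, was found in 34.2% of the 38 windows and in 43.8% of all 32851 windows of the table. It was in the windows of 3 of the 7 higher genes that have one (Col4a1, Col4a2 and Col5a3) and of 2 of the 4 lower ones (Col4a4 and Col13a1). The CCAAT box was in 34.2% of the collagen windows and 37.4% of all windows, and the GC box in 60.5% and 35.7%. A GC box was in the windows of all 7 higher genes that have one and of 2 of the 4 lower genes.

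The α1 and α2 chains, the general basement membrane chains, were higher in every tumor than in any kidney. Col4a1 lay between 1417 and 2482 CPM in tumors, with a median of 1766, and between 114 and 959 CPM in kidneys, with a median of 336. The rise was 2.20 ± 0.28 on the log2 scale (SE, n = 10 and 10, adjusted p = 1.68e-06 in edgeR), and 2.14 ± 0.29 without tumor 7. Col4a2 lay between 830 and 1492 CPM in tumors, with a median of 995, and between 84.1 and 575 CPM in kidneys, with a median of 245. This was a rise of 1.87 ± 0.26 on the log2 scale (adjusted p = 5.81e-06) and 1.80 ± 0.27 without tumor 7. Tumor 7 was the highest tumor for both genes, yet it held only 13.3% and 14.0% of the tumors' summed CPM, where 10% is an equal share.

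The α3 and α4 chains of the glomerular filter moved the other way, and every tumor was below every kidney. Col4a3 lay between 12.3 and 54.4 CPM in tumors (median 35.5) and between 59.6 and 319 CPM in kidneys (median 230). The difference on the log2 scale was -2.59 ± 0.29 (edgeR adjusted p = 3.02e-07) and -2.62 without tumor 7. Col4a4 lay between 15.3 and 61.8 CPM in tumors (median 31.8) and between 76.5 and 300.2 CPM in kidneys (median 260.0), with a log2 fold change of -2.57 ± 0.29 (adjusted p = 3.56e-07) and -2.56 without tumor 7. The lowest kidney for both was kidney 9, which still lay above the highest tumor. Markers of the podocyte, the cell that makes these chains in the glomerulus, were low in the same tumors: Nphs1 had a median of 0.338 CPM in tumors and 43.1 CPM in kidneys, and Ptpro 1.75 and 27.4 CPM. Of 8 podocyte and parietal epithelium markers 4 were lower and 1, Cldn1, was higher, where 23.8% and 23.6% of all genes tested were called. The summed level of the list was 243 to 397 CPM in tumors and 136 to 887 CPM in kidneys. Podocyte markers were not the only ones to fall, as 4 of 8 kidney tubule markers were lower and 0 higher. Slc12a1 had a median of 0.191 CPM in tumors and 1284 CPM in kidneys, and Slc12a3 0.598 and 1374 CPM, while Lrp2 was not called. The part of podocytes or of tubule cells in the fall of Col4a3 and Col4a4 was not tested.

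The α5 and α6 chains, encoded on the X chromosome, rose by smaller amounts. Col4a5 lay between 75.4 and 124 CPM in tumors (median 90.9) and between 11.3 and 67.7 CPM in kidneys (median 50.8), so that the groups did not overlap. The rise was 1.05 ± 0.22 on the log2 scale (edgeR adjusted p = 0.000556) and 1.08 without tumor 7, which was the lowest tumor for this gene. Col4a6 lay between 6.64 and 19.9 CPM in tumors (median 9.59) and between 0.88 and 7.94 CPM in kidneys (median 3.87). Here 8 of 10 tumors were above every kidney, and the log2 fold change was 1.40 ± 0.28 (adjusted p = 0.000288) with or without tumor 7.

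**Figure D3:**
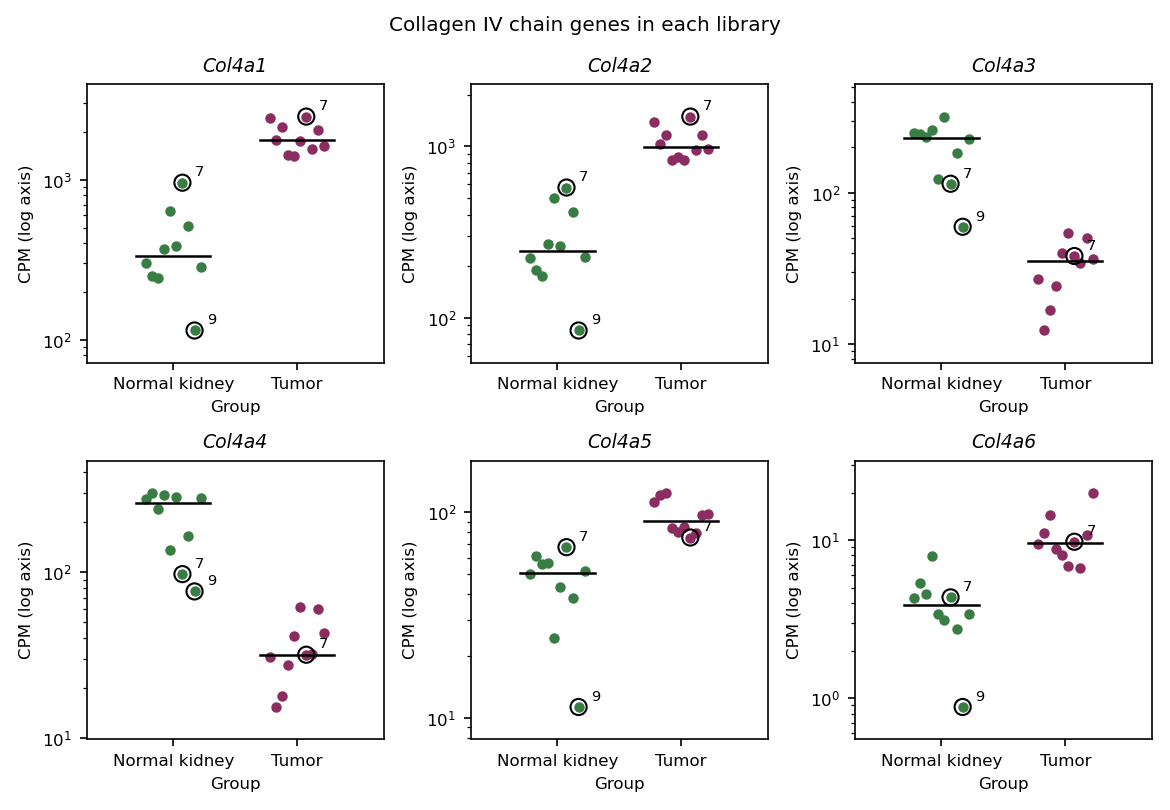
CPM (log axis) of the 6 collagen IV genes in each of 10 normal kidneys and 10 tumors, with a bar at each group's median and circles around tumor 7, normal kidney 7 and normal kidney 9. The groups do not overlap for Col4a1, Col4a2 and Col4a5 (tumors higher) and for Col4a3 and Col4a4 (tumors lower), and tumor 7 is the highest tumor for Col4a1 and Col4a2, near the next tumor in both, and the lowest for Col4a5.

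Ratios of chains within a library do not depend on its scaling, and 9 pairs of chains were compared (two-sided permutation test, p adjusted over the 9 pairs). The log2 ratio of Col4a1 to Col4a3 was 5.90 ± 0.76 (SD) in tumors and 0.94 ± 1.05 in kidneys, a difference of 4.96 or 31.2-fold (adjusted p = 0.00018), with all 10 tumors above every kidney. Within the first pair the ratio of Col4a1 to Col4a2 was also higher in tumors, by 0.35 (adjusted p = 0.00018), with 7 of 10 tumors above every kidney. No difference was called for Col4a3 to Col4a4 (-0.02, adjusted p = 0.841) or for Col4a5 to Col4a6 (-0.29, adjusted p = 0.156). The SDs of the log2 ratios of these pairs ranged from 0.18 to 0.40 within the groups.

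Collagen XVIII, a heparan sulfate proteoglycan of basement membranes whose fragment is endostatin, was the other abundant gene that rose. Col18a1 (ENSMUSG00000001435, chr10:77052178-77166548, minus strand) lay between 480 and 874 CPM in tumors, with a median of 654, and between 105 and 634 CPM in kidneys, with a median of 237. The highest kidney was kidney 7 and the next was at 323 CPM, and 6 of 10 tumors were above every kidney. On the log2 scale the rise was 1.30 ± 0.22 (edgeR adjusted p = 6.29e-05) and 1.27 without tumor 7, which ranked below 2 other tumors. Its relative Col15a1, a collagen of vessels and stroma, was not called (0.39, adjusted p = 0.523), and its log2 fold change was -0.18 without tumor 7. The log2 ratio of Col15a1 to Col18a1 was lower in tumors by 1.29 (adjusted p = 0.0144). Tumor 7 had the highest ratio of the tumors, -2.56, and 6 of 10 tumors lay below every kidney.

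Among the fibrillar collagens, the genes of types I and III and Col5a1 and Col5a2 were high in tumor 7, which was the only tumor above every kidney for each of them. Col1a1, the α1 chain of type I collagen, was at 1565 CPM in tumor 7 and between 17.7 and 139 CPM in the other 9 tumors. Kidneys lay between 7.04 and 285 CPM, with kidney 7 at the top and the next kidney at 62.4 CPM. Tumor 7 alone was above every kidney, and it held 75.3% of the tumors' summed CPM. The log2 fold change of 1.82 ± 0.82 was not called (edgeR adjusted p = 0.0733) and became -0.05 ± 0.53 without tumor 7.

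Col3a1, the chain of type III collagen that is laid down with type I, followed the same order. It was at 4242 CPM in tumor 7 and between 32.9 and 183 CPM in the other 9 tumors. In kidneys it was at 633 CPM in kidney 7 and between 26.4 and 103 CPM in the others. The log2 fold change was 2.15 ± 0.96 (adjusted p = 0.0685 in edgeR) and -0.44 ± 0.56 without tumor 7, which held 85.1% of the tumors' sum. Col1a2, the α2 chain of type I, was at 1519 CPM in tumor 7 and 31.6 to 153 CPM in the other 9 tumors, with kidney 7 at 362 CPM and the other kidneys at 49.1 to 99.6 CPM. Its log2 fold change was 1.11 (adjusted p = 0.182) and -0.46 without tumor 7, and 3 of the 9 other tumors were below every kidney. Leaving out kidney 7 instead gave the reverse shift, with Col1a1 at 2.63 (adjusted p = 0.00987) and Col3a1 at 3.21 (adjusted p = 0.00761). Without both number 7 libraries Col1a1 was at 0.75 (adjusted p = 0.107) and Col3a1 at 0.60 (adjusted p = 0.15).

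Type V collagen, which lies inside type I fibrils and sets their diameter, split by chain. Col5a1 was at 272 CPM in tumor 7, 5.48 to 20.5 CPM in the other 9 tumors and 5.78 to 64.9 CPM in kidneys, and its log2 fold change went from 1.13 (edgeR adjusted p = 0.182) to -0.55 without tumor 7. Col5a2 was at 354 CPM in tumor 7, 9.63 to 43.2 CPM in the other 9 tumors and 11.8 to 72.6 CPM in kidneys. Its log2 fold change of 0.46 was not called (adjusted p = 0.548), and without tumor 7 it was called lower, at -0.93 ± 0.31 (adjusted p = 0.0171). Col5a3 (ENSMUSG00000004098, chr9:20770050-20815067, minus strand) rose in both fits. It was at 68.9 CPM in tumor 7, 4.15 to 15.7 CPM in the other 9 tumors and 0.566 to 10.5 CPM in kidneys, and 7 of 10 tumors were above every kidney, or 6 of the 9 without tumor 7. On the log2 scale the rise was 2.02 ± 0.47 (adjusted p = 0.00124) and 1.37 ± 0.34 without tumor 7 (adjusted p = 0.00191).

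Col27a1 (ENSMUSG00000045672, chr4:63214004-63334991, plus strand), a fibrillar collagen of cartilage and developing tissue, was the fibrillar gene that fell. It lay between 6.16 and 17.7 CPM in tumors (median 14.3) and between 15.7 and 92.8 CPM in kidneys (median 44.3), and 7 of 10 tumors were below every kidney. The difference on the log2 scale was -1.88 ± 0.26 (edgeR adjusted p = 4.79e-06) and -1.89 without tumor 7. Col11a2 lay between 0.171 and 1.45 CPM in tumors and was not called (0.26, adjusted p = 0.542, and 0.02 without tumor 7). Over the class, 1 of 8 tested genes was higher and 1 lower, and the median log2 fold change was 1.12 with tumor 7 and -0.45 without it.

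The chains of type I shifted against each other as well. The log2 ratio of Col1a1 to Col1a2 was -0.39 ± 0.28 (SD) in tumors and -1.17 ± 0.69 in kidneys, a difference of 0.78 or 1.72-fold (permutation test, adjusted p = 0.0024). Of the 10 tumors, 5 lay above every kidney in this ratio. The ratio of Col5a1 to Col5a2 was higher in tumors by 0.69 (adjusted p = 0.00868), with no tumor above every kidney, and that of Col3a1 to Col1a1 was not called (-0.11, adjusted p = 0.644).

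**Figure D4:**
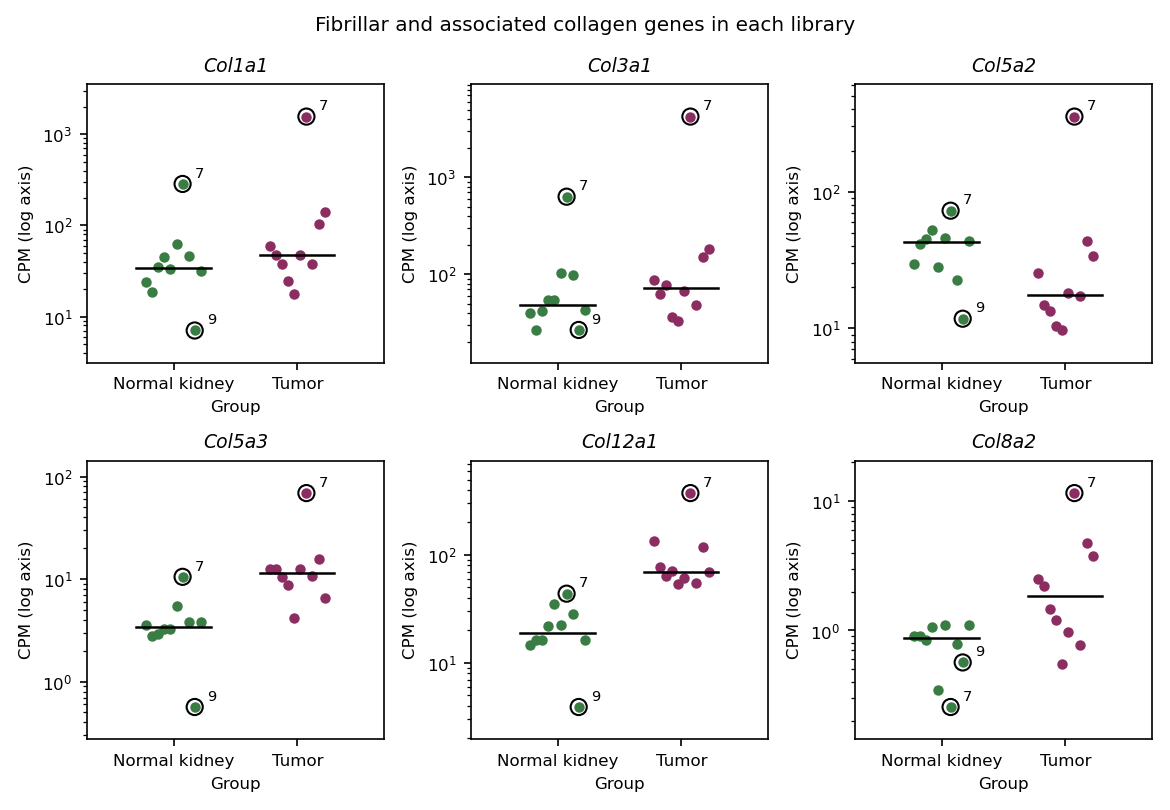
CPM (log axis) of Col1a1, Col3a1, Col5a2, Col5a3, Col12a1 and Col8a2 in each of 10 normal kidneys and 10 tumors, with a bar at each group's median and circles around tumor 7, normal kidney 7 and normal kidney 9. Tumor 7 is the highest library in every panel, at 1565 CPM for Col1a1 and 4242 CPM for Col3a1, and for Col12a1 all tumors lie above all kidneys.

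Among collagens that attach to fibrils, Col12a1 rose and the others did not pass the test. Col12a1 (ENSMUSG00000032332, chr9:79598991-79718831, minus strand), which links fibrils under tension, was at 374 CPM in tumor 7, 53.3 to 134 CPM in the other 9 tumors and 3.90 to 43.8 CPM in kidneys. Every tumor was above every kidney, with or without tumor 7. This rise was 2.30 ± 0.40 on the log2 scale (edgeR adjusted p = 7.25e-05) and 1.82 ± 0.30 without tumor 7 (adjusted p = 4.05e-05). Col14a1, which binds fibrils next to decorin, was at 179 CPM in tumor 7 and 6.81 to 71.3 CPM in the other 9 tumors, against 16.6 to 74.8 CPM in kidneys. Its log2 fold change was -0.00 (adjusted p = 0.999) and -0.69 without tumor 7 (adjusted p = 0.118). Col16a1 was at 55.8 CPM in tumor 7, 5.69 to 22.7 CPM in the other 9 tumors and 9.05 to 35.7 CPM in kidneys, and went from -0.26 (adjusted p = 0.577) to -0.70 ± 0.28 without tumor 7, when it was called lower (adjusted p = 0.0403). Col20a1 lay between 0.719 and 2.00 CPM in tumors and between 0.189 and 2.78 CPM in kidneys (-0.29, adjusted p = 0.504, and -0.28 without tumor 7).

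Type VI collagen, which forms beaded filaments around cells, had no called gene among 4 tested. Col6a1 was at 171 CPM in tumor 7, 8.36 to 36.4 CPM in the other 9 tumors and 15.2 to 72.5 CPM in kidneys, with kidney 7 at the top. The log2 fold changes of Col6a1, Col6a2 and Col6a3 were 0.19, 0.33 and 0.54 with tumor 7, and -0.66, -0.46 and -0.02 without it. In edgeR the adjusted p of these genes was 0.762, 0.613 and 0.428 with tumor 7, and 0.0647, 0.293 and 0.973 without it. Col6a2 and Col6a3 were at 121 and 147 CPM in tumor 7, where the next tumor was at 30.9 and 57.0 CPM. For Col6a3 kidney 7 was at 107.7 CPM and the next kidney at 28.4 CPM. Without both number 7 libraries the log2 fold change of Col6a3 was 0.60 (edgeR adjusted p = 0.177). The ratio of Col6a1 to Col6a2 differed by -0.21 on the log2 scale (permutation test, adjusted p = 0.0633). Col6a5, a chain of low level, lay between 0.0536 and 2.56 CPM in tumors and was not called (-0.65, adjusted p = 0.443, and -1.18 without tumor 7).

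Of the short-chain and anchoring collagens, Col8a2 rose. Col8a2 (ENSMUSG00000056174, chr4:126286793-126314330, plus strand), a network collagen of endothelial basement membranes, was at 11.6 CPM in tumor 7, 0.554 to 4.77 CPM in the other 9 tumors and 0.256 to 1.09 CPM in kidneys. Kidney 7 was the lowest kidney here. The log2 fold change was 1.93 ± 0.48 (edgeR adjusted p = 0.00231) and 1.37 ± 0.38 without tumor 7 (adjusted p = 0.00514). Its partner Col8a1 was at 142 CPM in tumor 7 and 6.70 to 44.3 CPM in the other 9 tumors, with kidneys at 3.20 to 26.3 CPM, and its log2 fold change went from 0.83 (adjusted p = 0.175) to 0.04 without tumor 7. Col7a1, the anchoring fibril collagen of skin, lay between 0.388 and 3.16 CPM in tumors and reached 5.55 CPM in kidney 7 (-0.25, adjusted p = 0.672, and -0.53 without tumor 7).

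Both transmembrane collagens that could be tested fell. Col23a1 (ENSMUSG00000063564, chr11:51289920-51583918, plus strand) lay between 0.228 and 1.22 CPM in the 9 tumors other than tumor 7, and all of these were below every kidney, which lay between 2.44 and 5.09 CPM. Tumor 7 was at 3.12 CPM. The log2 fold change was -1.97 ± 0.38 (edgeR adjusted p = 0.000243) and -2.53 ± 0.27 without tumor 7 (adjusted p = 1.45e-07), so that tumor 7 made this fall smaller. Col13a1 (ENSMUSG00000058806, chr10:61838236-61979108, minus strand), a component of neuromuscular junctions and other cell contacts, lay between 0.692 and 6.09 CPM in tumors (median 1.69) and between 1.01 and 24.3 CPM in kidneys (median 3.02), and the groups overlapped. Its log2 fold change was -1.63 ± 0.57 (adjusted p = 0.023) and -1.78 without tumor 7. The kidneys set this call: it was lost without kidney 5 (-1.17, adjusted p = 0.0721) or without kidney 8 (-1.33, adjusted p = 0.0562).

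The remaining 15 genes did not pass the filter on low counts and were not tested, with at most 223 counts in any library. Col28a1 was at 9.52 CPM in tumor 7 and 0.228 to 7.39 CPM in the other 9 tumors, against 0.0599 to 0.573 CPM in kidneys, with 602 counts over the tumors and 54 over the kidneys. Col10a1, the collagen of growth plate cartilage, was highest in tumor 6, at 3.16 CPM, with 0.555 CPM in tumor 7 and at most 0.44 CPM in kidneys. Col11a1, a cartilage fibril collagen, and Col17a1, the collagen of hemidesmosomes, stood out in tumor 7 at 8.62 and 4.74 CPM, where the next tumors were at 0.783 and 0.504 CPM. Tumor 7 held 67.7% and 78.2% of the tumors' summed CPM of these genes. In kidneys Col11a1 was at most at 0.296 CPM. Col17a1 lay there between 0.170 and 3.03 CPM, with kidney 7 at the top, and 7 of 10 tumors were below every kidney. Col26a1 had 1 count over all tumors and 220 counts over all kidneys, and Col24a1 had 29 and 199 counts. Col2a1, Col6a4, Col6a6, Col9a1, Col9a2, Col9a3, Col19a1, Col22a1 and Col25a1 were at most at 0.885 CPM in any library, and Col2a1, the main collagen of cartilage, had 14 counts over all tumors and 4 over all kidneys. The summed level of 9 bone and cartilage markers was 13.1 to 140.5 CPM in tumors and 6.34 to 99.4 CPM in kidneys, of which Sox9, also a tubule injury gene, was at 10.4 to 130.3 CPM and 2.04 to 96.5 CPM. Comp reached 24.6 CPM in tumor 7 and Acan 3.50 CPM, while Mepe was at 0 in all 20 libraries and Ibsp at 0 in every tumor.

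In the make-up of the collagen transcripts, which takes the share of summed CPM per kb, the α1 and α2 chains of type IV took a median of 70.0% in tumors and 34.4% in kidneys. The range was 62.8% to 74.1% in the 9 tumors other than tumor 7 and 29.8% to 56.4% in kidneys, so that these groups did not overlap, while tumor 7 was at 32.2%. The other collagen IV chains took a median of 4.01% in tumors and 24.3% in kidneys. Collagen I and III took 1.93% to 8.83% in the other 9 tumors, 45.8% in tumor 7 and 24.7% in kidney 7, with a median of 7.26% in kidneys. By median CPM per kb the order in tumors was Col4a1 (237), Col4a2 (150.4), Col18a1 (93.2) and Col4a5 (13.5), and in kidneys Col4a1 (45.0), Col4a2 (37.0), Col18a1 (33.7), Col4a4 (24.5) and Col4a3 (23.1). The ranges of Col4a1 and Col4a2 overlapped within each group, as did those of Col4a3 and Col4a4 in kidneys. In tumor 7 the order was Col3a1 (432 CPM per kb), Col4a1 (332), Col1a1 (238), Col4a2 (225) and Col1a2 (122). These shares are descriptions and were not tested.

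**Figure D5:**
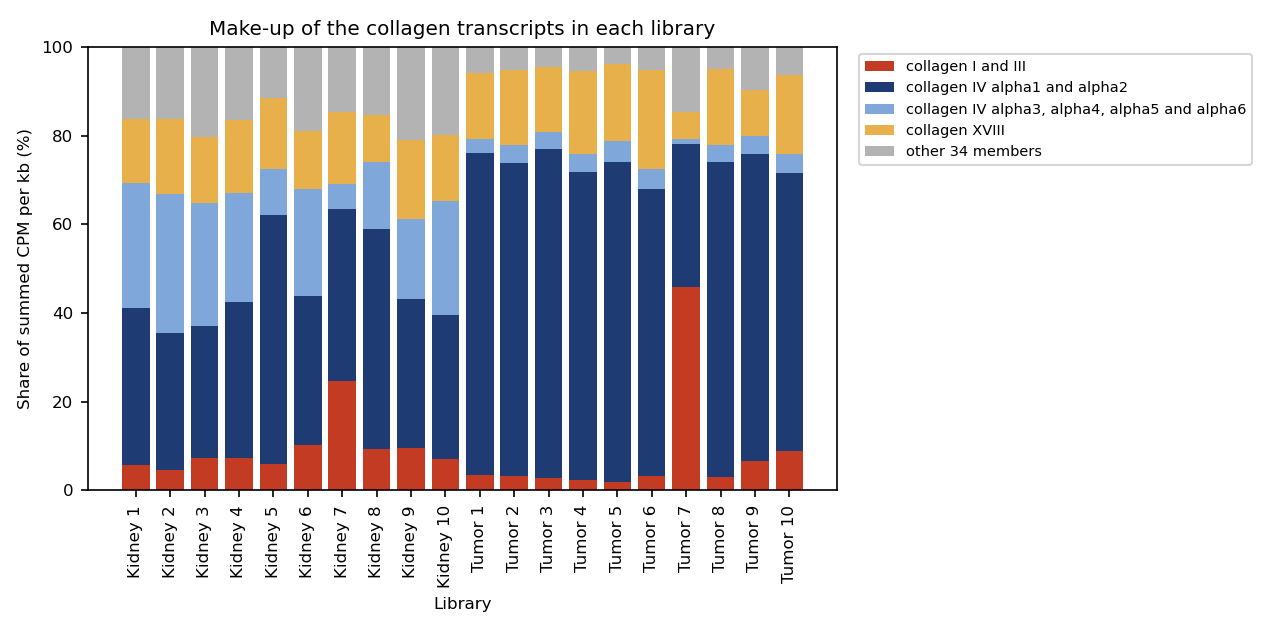
Share of the summed CPM per kb of all 44 collagen genes (vertical axis, %) taken by 5 parts of the group in each library (bars, normal kidneys left and tumors right). The α1 and α2 chains of type IV take 62.8% to 74.1% in 9 tumors, and collagen I and III take 45.8% in tumor 7 and 24.7% in normal kidney 7.

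Partners of the collagens were counted in lists chosen with earlier results of these data known. Of the 15 laminins, nidogens and basement membrane proteoglycans, 11 were higher and 1, Lamb2, was lower. Over all genes tested 23.6% were higher and 23.8% lower. Without tumor 7 there were 10 higher and 2 lower, with Lama2 added (-0.65, edgeR adjusted p = 0.0409). The median log2 fold change of the list was 1.06, and 1.00 without tumor 7 (over all genes tested, -0.02 and -0.05). Nid2, which joins laminin to collagen IV, was at 57.5 to 122 CPM in tumors and 9.55 to 42.2 CPM in kidneys (log2 fold change 1.77, edgeR adjusted p = 2.92e-07, and 1.71 without tumor 7). Lama1 (1.75, and 1.84 without tumor 7) and Lama4 (1.72, and 1.24) followed by size. The collagen receptors had 4 of 9 tested genes higher, where 23.6% of all genes tested were called higher, and the largest changes were those of Itga11 (1.97, and 1.23 without tumor 7), Mrc2 (1.61, and 1.52) and Itgb1 (0.91, and 0.81). Without tumor 7 the receptor Ddr2 was called lower (-1.05, edgeR adjusted p = 0.00102). TGF-beta and CTGF genes had 2 of 8 higher, Tgfb1 (1.54, and 1.45 without tumor 7) and Tgfb2 (1.51, and 1.29), a share near that of all genes. The gene of CTGF, Ccn2, was not called with tumor 7 (-0.33, adjusted p = 0.67) and was called lower without it (-1.47, adjusted p = 0.00329).

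Of 14 genes for folding, export and trimming of procollagen, 5 were higher and 3 lower, and without tumor 7 there were 4 and 5. Over all genes tested the shares were 23.6% higher and 23.8% lower, and 23.6% and 27.1% without tumor 7. Colgalt1, which adds galactose to collagen, was at 107 to 153 CPM in tumors and 44.3 to 72.9 CPM in kidneys (log2 fold change 1.25, edgeR adjusted p = 1.83e-09). Its paralog Colgalt2 fell in every tumor below every kidney (-2.50, adjusted p = 1.77e-07). Pcolce2 (1.84, and 1.64 without tumor 7), Sparc (1.73, and 1.45) and Adamts2 (1.45) were higher, with Adamts2 at 171 CPM in tumor 7 and 0.30 on the log2 scale without it (adjusted p = 0.437). Pcolce (-2.14, and -2.63 without tumor 7) and Tll1 (-1.28, and -1.82), both of which act in the removal of the C-propeptide of fibrillar collagens, were lower. Serpinh1, the collagen chaperone HSP47, was not called (0.44, adjusted p = 0.257, and 0.05 without tumor 7). Of the small leucine-rich proteoglycans Aspn (1.33) and Ogn (0.97) were called higher among 8 tested, and without tumor 7 Dcn, Bgn and Fmod were called lower as well.

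Marker lists of stromal cells moved with tumor 7. The summed level of 10 fibroblast markers was 688 CPM in tumor 7, 23.5 to 144 CPM in the other 9 tumors and 110 to 180 CPM in kidneys. Tumor 7 was the highest tumor for 9 of these 10 markers and for all 8 myofibroblast markers, whose sum was 1149 CPM in tumor 7, 47.2 to 194 CPM in the other 9 tumors, 302 CPM in kidney 7 and at most 134 CPM in the other kidneys. Over all genes tested 23.6% were called higher and 23.8% lower, and 23.6% and 27.1% without tumor 7. Of the fibroblast markers 1 (Mfap5) was higher and 3 (Tcf21, Pdgfra and Meox1) were lower among 9 tested. Without tumor 7 Fbln1 was lower as well. Of the myofibroblast markers Cilp, Ltbp2, Postn and Fap were higher among 7 tested, with or without tumor 7, and Ltbp2 went from 2.64 to 1.37 on the log2 scale. Without tumor 7 the other 3, Acta2 (-1.36), Tagln (-1.24) and Tnc (-1.65), were called lower. Acta2 was at 494 CPM in tumor 7, 218 CPM in kidney 7 and at most 76.9 CPM in the other 9 tumors. The part of these cells in the collagen values of tumor 7 and kidney 7 was not tested.

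Other marker lists are given with their counts called, where 23.6% of all genes tested were higher and 23.8% lower. Without tumor 7 these shares were 23.6% and 27.1%. Counts in lists this short were not tested against the shares. Pericyte, smooth muscle and mesangial markers had 1 gene higher (Cspg4) and 1 lower (Itga8) of 9, and 5 lower without tumor 7 (with Pdgfrb, Myh11, Cnn1 and Des). Their sum was 334 to 991 CPM in tumors and 186 to 363 CPM in kidneys. Of this sum Cspg4 alone held 142 to 527 CPM in tumors and 8.99 to 51.7 CPM in kidneys. Endothelial markers had 1 higher (Cdh5) and 4 lower (Tek, Ehd3, Flt1 and Eng) of 9, with sums of 472 to 1315 CPM in tumors and 618 to 933 CPM in kidneys. Markers of macrophages and other leukocytes had 3 of 5 tested higher (Cd68, Adgre1 and Csf1r), with sums of 173 to 569 CPM in tumors and 58.0 to 149 CPM in kidneys. Tubule markers had 4 of 8 lower, with Aqp2, Umod and Slc12a1 the furthest down, and their sum was lowest in tumor 7 among tumors (979 CPM) and in kidney 7 among kidneys (5415 CPM). Injured tubule markers had 2 of 7 higher (Cd44 and Vcam1) and 1 lower (Lcn2), and in kidneys their sum was highest in kidney 7, at 5487 CPM, where the other kidneys reached at most 3136 CPM. In tumors it was 3090 CPM in tumor 7 and 389 to 1032 CPM in the others. Different genes made up most of it, with Vim (1294 CPM) and Krt20 (761 CPM) the largest in tumor 7. In kidney 7 the largest were Lcn2 (3302 CPM) and Havcr1 (1347 CPM). Bone and cartilage markers had 0 of 3 tested called, and without tumor 7 Runx2 was called lower (-1.25). Without tumor 7 Cd79a was tested and called lower among the leukocyte markers (-2.11), and the podocyte list had 6 lower. The part of these cells in the collagen values was not tested.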

How the data were processed

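Tumor and kidney RNA of 20 libraries was flash frozen, pulverized, extracted with Trizol, enriched for poly A and sequenced by a company, which also counted reads per gene. The authors deposited raw gene counts without normalization, on mm10 per the labels. The aligner, counter and use of strand are not given in the sources used here, so genes that overlap, as Col4a1 and Col4a2 do at their starts, carry uncertain counts. Groups and numbers came from the sample labels, and 0 columns of per-sample values were left unused.

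Counts were scaled by TMM and tested by the quasi-likelihood test of edgeR 4.0.16 (R 4.3.3), with all 20 libraries, no covariate, a count minimum of 10 (15354 genes) and Benjamini-Hochberg adjustment over all genes tested. A log2 fold change is tumor over normal kidney, and its standard error is its size over the square root of the F statistic. CPM use TMM-scaled totals. Chain ratios were differences of log2 CPM with a prior count of 2, tested with 100000 permutations. Depth sets the precision, with between 14737516 and 26679704 counts a library, and p-values measure the spread between samples, which may be partly technical. Alternatives used DESeq2 1.42.0, limma 3.58.1, other scalings, no filter, a replicate block and left-out libraries. The scripts were tested on simulated data.

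Every member is named. Members past an adjusted p of 0.05 that reached a group mean of 1 CPM have full values, and of each list up to 3 called genes per direction are named by size of change, others being named after their values were seen. A gene of 1 marker list is not reported here. The members and lists were chosen with earlier results of these data known. Promoter sequences are those of RefSeq.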

Additional observations from a re-analysis of the deposited data

Results flagged for a closer look

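Some libraries lay far from the rest of their group. In groups of 10, the gap of the highest or lowest library to its neighbor was divided by the group's range, and values above the 95% critical value of Dixon's test are given here. Of 76 groups checked 20 were past this limit. Chance gives about 1 in 20 where groups are independent. These groups share libraries and genes, so their count cannot be set against that rate. Tumor 7 gave 8 of the flags, normal kidney 9 gave 5 and normal kidney 7 gave 3.

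On the log2 CPM scale tumor 7 stood above the other tumors in Col1a1 (0.54), Col1a2 (0.593), Col3a1 (0.647), Col5a1 (0.664), Col5a2 (0.585), Col5a3 (0.529), Col6a1 (0.513) and Col12a1 (0.527). Normal kidney 7 stood above the other kidneys in Col1a2 (0.646), Col3a1 (0.573) and Col5a1 (0.502). Normal kidney 9 stood below the other kidneys in Col5a3 (0.533), Col4a6 (0.505), Col8a1 (0.569), Col12a1 (0.546) and in the ratio of Col1a1 to Col1a2 (0.582). Tumor 9 was high for Col20a1 (0.512). Among the other chain ratios, tumor 6 was high for Col4a1 to Col4a2 (0.527), tumor 10 low for Col4a5 to Col4a6 (0.491) and tumor 5 high for Col6a1 to Col6a2 (0.468).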

How the results depend on the processing

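The count of 8 higher genes was 8 under both other edgeR scalings and library totals, DESeq2, limma-voom with quality weights, the replicate block and both fits without tumor 7 and a kidney, and 11 with no filter on low counts. With 1 library left out it lay between 8 and 13, the highest value coming without normal kidney 7, when Col1a1, Col3a1, Col5a1 (1.67, edgeR adjusted p = 0.046), Col6a3 (1.17, adjusted p = 0.045) and Col28a1 (3.24, adjusted p = 0.000355) were called as well. The count of 5 lower genes was 9 with no filter, 10 with limma-voom, 7 with DESeq2 and 8 without tumor 7 and normal kidney 9, a choice made after seeing the data, and lay between 4 and 7 with 1 library left out. Library totals and upper-quartile scaling moved the median over all genes tested from -0.02 to -0.14 on the log2 scale. By the stricter limits the count of higher genes was 6 to 11 under these settings and that of lower genes 4 to 6. The genes gained with no filter were among those not tested with all 20 libraries and the filter (Col10a1, Col11a1 and Col28a1 higher, Col19a1, Col24a1, Col25a1 and Col26a1 lower). The cause of the other shifts was not tested.

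With 1 library left out, log2 fold changes that turned sign lay between -0.050 and 2.63 for Col1a1, -0.46 and 1.60 for Col1a2, -0.44 and 3.21 for Col3a1, -0.55 and 1.67 for Col5a1, -0.93 and 0.61 for Col5a2, -0.66 and 0.44 for Col6a1, -0.46 and 0.62 for Col6a2, -0.022 and 1.17 for Col6a3, -0.18 and 0.68 for Col15a1, -0.53 and 0.27 for Col7a1, and -0.69 and 0.14 for Col14a1. With DESeq2 the value turned negative for Col1a2 (-0.48), Col5a1 (-0.038), Col5a2 (-0.89, adjusted p = 0.00874) and Col6a1 (-0.65, adjusted p = 0.0439). With limma-voom it did so for Col1a2 (-0.067), Col5a1 (-0.16), Col5a2 (-1.15), Col6a1 (-0.59), Col6a2 (-0.44), Col11a2 (-0.14) and Col15a1 (-0.15). With no filter Col14a1 was at 0.034. Without tumor 7 and normal kidney 9, values were -0.20 for Col1a1, -0.55 for Col1a2, -0.58 for Col3a1, -0.67 for Col5a1, -1.06 for Col5a2, -0.73 for Col6a1, -0.57 for Col6a2, -0.16 for Col6a3, -0.10 for Col8a1, -0.038 for Col11a2 and -0.31 for Col15a1. Without both number 7 libraries, also chosen after seeing the data, they were -0.024 for Col5a1, -0.79 for Col5a2, -0.42 for Col6a1, -0.18 for Col6a2 and -0.00043 for Col11a2. Chain ratios with 1 library left out lay between -0.20 and 0.012 for Col3a1 to Col1a1, -0.060 and 0.019 for Col4a3 to Col4a4, and -0.26 and -0.17 for the log2 ratio of Col6a1 to Col6a2, the last with adjusted p from 0.0141 to 0.124 over all libraries left out, and with 0.0191 without kidney 3, 0.0467 without kidney 7 and 0.0141 without tumor 5.

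Tumors and kidneys of equal number deviated together over all genes in 9 pairs (correlations 0.191 to 0.377) and not in number 9 (-0.143), and 8 of 10 numbers ranked their own partner first, so the number is only a hint of pairing. With the replicate block 8 genes were higher and 5 lower, and the sign turned for Col5a2 (-0.60), Col6a1 (-0.31) and Col6a2 (-0.10).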
